A study of Homo sapiens with 22 samples.

Results

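The 44 proteasome subunit genes were all genes whose symbol is PSMA, PSMB, PSMC, PSMD, PSME or PSMF followed by a number, out of 60675 genes in the expected-count table. They were divided by role into 8 alpha and 7 beta subunits of the core particle, 4 special beta subunits, 6 ATPases, 8 lid subunits, 3 base subunits without ATPase activity, 3 assembly chaperones of the base, and 5 activators and inhibitors. RNA was measured in 22 libraries of HT1080 cells, a human fibrosarcoma line. Untreated wild-type (WT) cells were compared with 3 mutant lines made by CRISPR/Cas9, in which the endogenous gene carries a histidine to alanine change in a deacetylase active site. In KDAC6H216A and KDAC6H611A the change lies in the first or the second catalytic domain of KDAC6 (HDAC6), and in KDAC8H143A it lies in KDAC8 (HDAC8). The mutant lines were not treated. WT cells were also treated for 2 days with 1 µM Tubastatin A, a KDAC6 inhibitor, or with 5 µM PCI-34051, a KDAC8 inhibitor. There were 4 libraries each of WT, KDAC6H216A, KDAC6H611A and KDAC8H143A and 3 of each inhibitor, described by the study as biological replicates. The mutant lines were grown from single colonies, and the KDAC6H216A cells were a pool of 3 such lines. A point mutation need not alter the level of its transcript, so HDAC6 or HDAC8 RNA is no direct check of the labels. HDAC6 stood at 14.2 ± 3.27 CPM (counts relative to the scaled total of a library) in WT, 6.36 ± 0.748 in KDAC6H216A, 13.2 ± 2.29 in KDAC6H611A and 15.6 ± 1.74 in KDAC8H143A, and HDAC8 at 12.7 ± 0.816 in WT and 12.5 ± 1.44 in KDAC8H143A (SD, n = 4).

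The proteasome is the protease that degrades proteins tagged with ubiquitin. Its core particle is a barrel in which outer rings of alpha subunits gate the entry and inner rings of beta subunits hold the active sites. PSMB6, PSMB7 and PSMB5 carry the caspase-like, trypsin-like and chymotrypsin-like activities, and interferon induces PSMB9, PSMB10 and PSMB8, which take their places in the immunoproteasome and favour peptides for antigen presentation. The regulatory particle caps the barrel, with a base whose ATPases unfold the substrate and a lid that removes its ubiquitin. PSME1 with PSME2, PSME3 and PSME4 are other activators that bind the ends of the barrel, and PSMF1 was named as an inhibitor of it. KDAC6 itself binds ubiquitin and helps carry ubiquitinated proteins to the aggresome.

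The libraries fell into kinds that the groups did not explain, and this bears on the comparisons below. Mitochondrial rRNA took 20.8 to 23.9% of the counts in WT libraries and 13.1 to 38.0% in the KDAC6 mutant libraries, except KDAC6H216A replicate 1 (0.195%) and KDAC6H611A replicate 4 (0.173%). It took at most 0.0259% in every KDAC8H143A and inhibitor library. No WT library belonged to this second kind, so library kind and group cannot be told apart in the comparisons of KDAC8H143A and of both inhibitors with WT. Total counts were 5248953 to 8998474 in WT, 6837390 to 17170473 in the mutant lines and 24315766 to 29862665 with the inhibitors. The mesenchymal markers fixed for the fibrosarcoma label summed to between 3337 and 8757 CPM, led by VIM, while THY1 stood at 0.494 CPM in WT. Epithelial, blood and endothelial markers summed to at most 1.99 CPM in any library.

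In WT cells 42 of the 44 genes were expressed well enough to be tested. PSMA8, the alpha subunit of the testis, had 0 counts in every library, and PSMB11, the beta subunit of the thymus, had at most 2. Scaled per kb of the canonical transcript, the highest level was that of PSMD2, a scaffold of the base, at 201 CPM per kb ± 17.3 (SD, n = 4). PSMA7, PSMB4 and PSMB1 followed at 131 ± 11.7, 128 ± 17.8 and 121 ± 9.53 CPM per kb (SD, n = 4), and these 3 did not differ beyond their spread. The subunits of the core, the ATPases and the lid had class medians of 43.2 to 84.7 CPM per kb. The special beta subunits were lower, at 17.3 ± 1.36 for PSMB8, 11.6 ± 1.92 for PSMB10 and 3.94 ± 0.596 CPM per kb for PSMB9 (SD, n = 4), which was the lowest of the 42. The base chaperones PSMD10, PSMD9 and PSMD5 were also low, at 14.8 ± 1.32, 12.1 ± 1.29 and 5.68 ± 0.393 CPM per kb (SD, n = 4). These levels assume that the canonical transcript is the one expressed.

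The log2 level of each gene was then followed across all libraries in a heat map. At least 36 of the 42 genes lay on one side of the WT mean in each KDAC6H216A and KDAC8H143A library and in KDAC6H611A replicates 1 and 2. In the other libraries of KDAC6H611A and in those of both inhibitors the genes were divided, with 19 to 28 of the 42 above it. The WT libraries themselves had 39 of the 42 genes below it in replicate 1, and 35, 36 and 18 above it in replicates 2, 3 and 4. A shift to one side thus also occurred within WT.

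**Figure D1:**
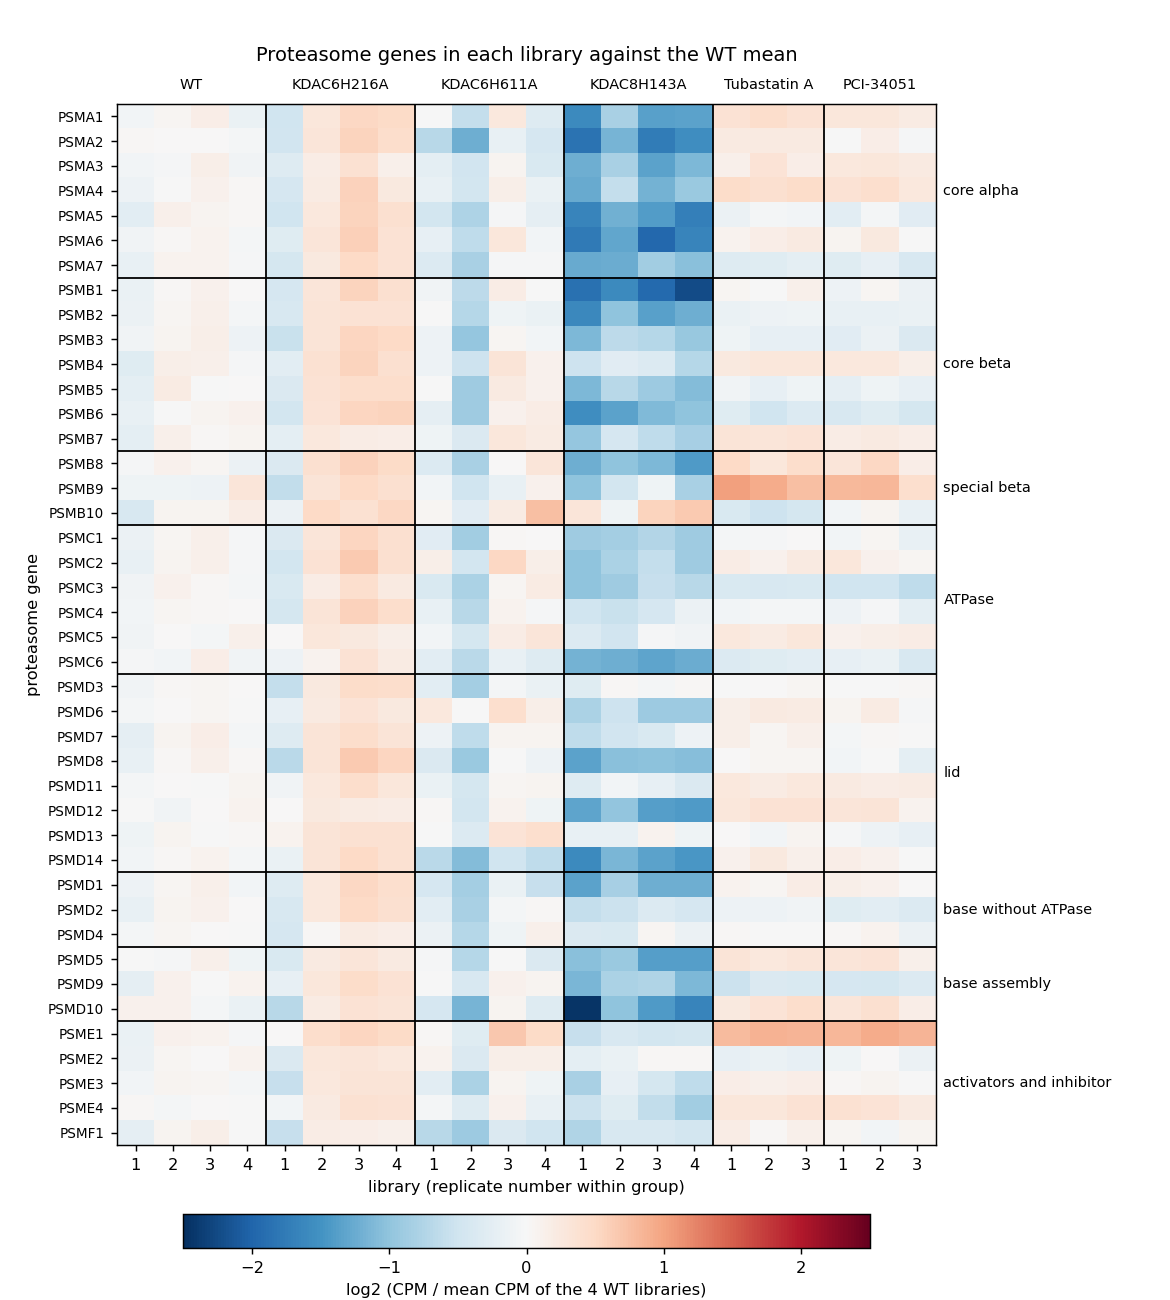
Each cell is the log2 ratio of a gene's CPM in 1 library (columns, by replicate number within each group) to its mean over the 4 WT libraries, for the 42 tested proteasome genes (rows, by class). KDAC8H143A is mostly blue, KDAC6H216A replicate 1 and KDAC6H611A replicate 2 differ from the other libraries of their lines, and PSME1 and PSMB9 are red with both inhibitors.

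KDAC6H216A, with an inactive first domain of KDAC6, gave no proteasome gene past the threshold. Of the 42 genes tested, 0 changed at an adjusted p below 0.01 by edgeR's quasi-likelihood test, against 0.834% of all 14500 genes. DESeq2 also called 0, and 2 of the 42 had an unadjusted p below 0.05. The median log2 fold change of the 42 genes was 0.14, against 0.00 over all genes tested, and 40 of them lay above 0. Scaled by the total count only, 2 of the 42 rose (2.47% of all genes), as the all-gene median shifted to 0.17 and the all-gene split from 31 higher and 90 lower to 358 and 85.

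The 4 libraries of this line differed from each other. In replicates 2, 3 and 4 all 42 genes lay above their WT mean, with medians of 0.29, 0.46 and 0.37 on the log2 scale. In replicate 1, the library with little mitochondrial rRNA, 38 of the 42 lay below it and the median was -0.37. The chymotrypsin-like subunit gene PSMB5 stood at 67.1, 110.0, 117 and 117 CPM in replicates 1 to 4 of the line, against 72.9, 99.0, 85.1 and 86.7 CPM in WT. Only replicate 1 fell under the lowest WT library, and the others exceeded the highest. Over all 4 libraries PSMB5 differed from WT by 0.16 ± 0.13 on the log2 scale (SE; adjusted p = 0.634, edgeR). The other catalytic genes gave 0.20 ± 0.15 for PSMB6, 0.01 ± 0.09 for PSMB7, 0.22 ± 0.15 for PSMB8, 0.12 ± 0.23 for PSMB9 and 0.24 ± 0.15 for PSMB10 (log2, SE; adjusted p of 0.529 to 0.957, edgeR). Without replicate 1, 24 of the 42 proteasome genes were higher than in WT and 0 were lower, where 12.2% of 14638 genes were higher and 13.8% lower, and the median of the 42 was 0.24. PSMB5 (0.27), PSMB6 (0.34) and PSMB8 (0.35) were among the 24. The result for this line thus rested on 1 library.

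KDAC6H611A, with an inactive second domain of KDAC6, had 2 proteasome genes that fell and none that rose. They were PSMD14, the deubiquitinase of the lid, and PSMF1, the inhibitor. The share of 2 of 42 compares with 6.24% of 14725 genes that were lower, and 6.08% that were higher. The median of the 42 genes was -0.12, against 0.03 over all genes tested.

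PSMD14 stood at 98.5, 106, 109.6 and 101 CPM in WT and at 65.3, 49.0, 73.1 and 66.5 CPM in KDAC6H611A replicates 1 to 4. The groups did not overlap, and the 2 libraries with the most and the least mitochondrial rRNA (replicates 2 and 4) were both below WT. The log2 fold change was -0.68 ± 0.10 (SE), a level of 0.623 of WT (adjusted p = 5e-04, edgeR). The RefSeq window before the start of PSMD14 (GRCh38.p14, chr2:161308175-161308424, plus strand) is shown because the gene was lower in this line and in KDAC8H143A. It is followed by that of PSMA6 (GRCh38.p14, chr14:35292067-35292316, plus strand), an alpha subunit gene that was lower in KDAC8H143A but not in this line. Both run 5′ to 3′ and end just before the RefSeq start. The window of PSMA6 lies inside the GENCODE span of its gene (35278633 to 35317493), which includes transcripts that start earlier. Capitals mark the letters CCAAT or GGGCGG on either strand, where CCAATTGG holds CCAAT on both strands.
PSMD14: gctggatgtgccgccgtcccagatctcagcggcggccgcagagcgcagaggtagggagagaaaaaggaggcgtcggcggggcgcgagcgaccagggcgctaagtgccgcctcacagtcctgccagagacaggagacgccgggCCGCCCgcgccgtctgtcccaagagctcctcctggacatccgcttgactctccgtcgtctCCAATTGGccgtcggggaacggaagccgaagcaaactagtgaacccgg
PSMA6: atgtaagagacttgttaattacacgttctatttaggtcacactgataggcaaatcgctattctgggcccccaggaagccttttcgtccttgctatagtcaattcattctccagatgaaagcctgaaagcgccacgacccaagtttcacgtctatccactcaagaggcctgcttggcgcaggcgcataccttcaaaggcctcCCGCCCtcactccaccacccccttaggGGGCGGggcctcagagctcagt

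PSMF1 stood at 53.7, 65.9, 70.0 and 62.2 CPM in WT and at 39.0, 33.5, 49.0 and 44.5 CPM in KDAC6H611A. Here too every mutant library lay below every WT library. The log2 fold change was -0.57 ± 0.11 (SE; adjusted p = 0.00232, edgeR), and its adjusted p ran from 0.000534 to 0.013 when single libraries were left out. The call of PSMF1 was lost without WT replicate 2 or 3 or KDAC6H611A replicate 1 (adjusted p = 0.0119, 0.013 and 0.0121, edgeR), while that of PSMD14 was kept in all 8 such fits. Neither gene passed with scaling by the total count only (adjusted p = 0.0507 for PSMD14 and 0.11 for PSMF1, edgeR), where 3.73% of all genes were higher and 2.47% lower (549 and 364, against 895 and 919).

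The remaining 40 genes did not pass. Next in size came PSMA2 (log2 fold change -0.54) and the base scaffold PSMD1 (-0.45), with adjusted p of 0.024 and 0.0145 (edgeR). The 6 catalytic genes lay between -0.12 and 0.25. These were -0.06 ± 0.17 for PSMB5, -0.12 ± 0.17 for PSMB6, 0.05 ± 0.12 for PSMB7, -0.12 ± 0.18 for PSMB8, -0.11 ± 0.22 for PSMB9 and 0.25 ± 0.20 for PSMB10 (log2, SE; adjusted p of 0.405 to 0.852, edgeR). The libraries of this line differed from each other by more than these values. In replicate 2, with 38.0% mitochondrial rRNA, all 42 genes lay below their WT mean with a median of -0.68, while the medians of the other libraries were between -0.15 and 0.08. Without replicate 2, 4 genes were lower (9.83% of all genes), and without replicate 4, 2 were (5.57%). Leaving out each of the other libraries gave 1 to 4 lower proteasome genes, against 575 of 15003 to 1055 of 14990 over all genes.

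**Figure D2:**
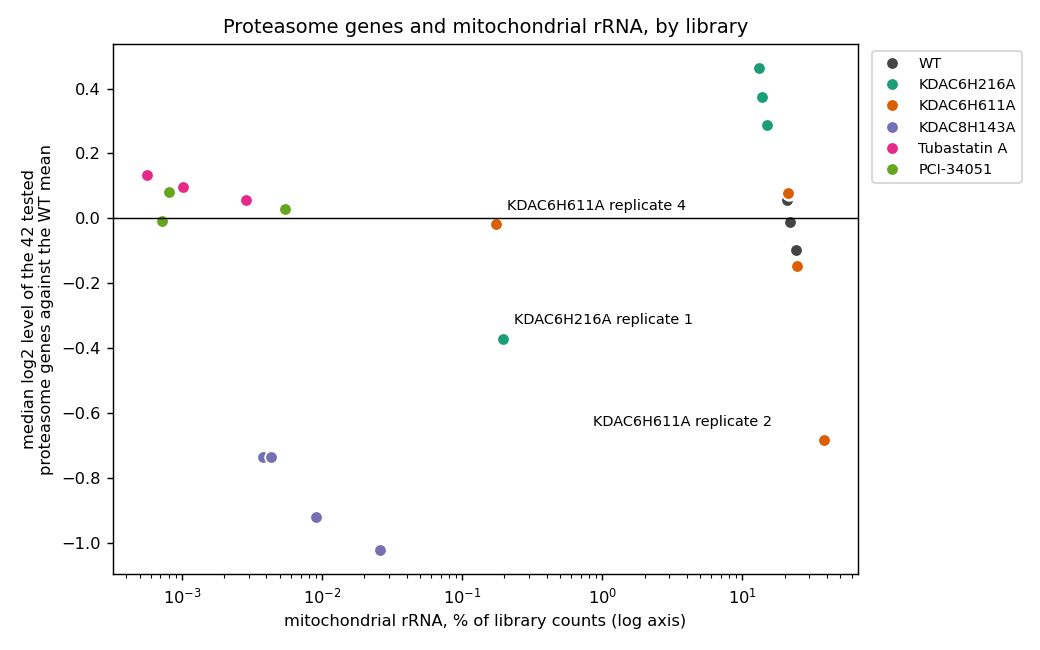
Each point is 1 library, with the share of its counts taken by mitochondrial rRNA on a log axis and the median log2 level of the 42 tested proteasome genes against the WT mean. The KDAC8H143A libraries (-1.02 to -0.74) and the inhibitor libraries (-0.01 to 0.13) both held at most 0.0259% mitochondrial rRNA and lay apart.

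In KDAC8H143A the proteasome genes were lower as a body. Of the 42 tested, 31 fell and 0 rose (73.8% lower), against 26.9% of 16101 genes that were lower and 31.6% that were higher. The median log2 fold change of the 42 was -0.79, against 0.08 over all genes tested, and 41 of the 42 lay below 0. Scaled by the total count only, where the median of all genes was 0.36, 25 fell and 1 rose, against 15.5% lower and 40.3% higher over all genes, and the all-gene split turned from 5093 higher and 4326 lower to 6481 and 2494. The 1 that rose was PSMB10. The summed count of the genes was 0.217 to 0.281% of a library in this line and 0.305 to 0.344% in WT, where total counts include the mitochondrial rRNA. In bulk RNA, fewer cells of a kind and less RNA per cell cannot be told apart.

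All 7 tested alpha subunit genes of the core fell, with a median of -1.19. PSMA6 stood at 80.9, 87.9, 91.3 and 83 CPM in WT and at 25.1, 34.8, 22.0 and 27.2 CPM in KDAC8H143A. The groups lay far apart, and the log2 fold change was -1.60 ± 0.13 (SE; adjusted p = 2.12e-06, edgeR). PSMA2 gave 38.6 to 40.9 CPM in WT and 11.1 to 17.9 CPM in the mutant, a change of -1.49 ± 0.14 (SE; adjusted p = 5.63e-06, edgeR). Every read count of PSMA6 and PSMA2 held a fraction, so the authors' counting had divided reads between these genes and others, and their values are less certain. The smallest fall of the alpha genes was that of PSMA4, at -0.91.

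Among the 7 constitutive beta subunit genes 6 fell, with a class median of -0.89. PSMB1, which has no active site of its own, showed the largest fall of all 42 genes. The gene lies on chromosome 6 at 170535120 to 170553307 (GRCh38, GENCODE), and whether neighbouring genes fell with PSMB1 was not tested. PSMB1 stood at 96.0, 110.3, 116 and 109 CPM in WT and at 29.7, 35.7, 28.1 and 22.7 CPM in KDAC8H143A, so that its highest mutant library held less than its lowest WT library. The log2 fold change was -1.84 ± 0.13 (SE), or 0.279 of the WT level (adjusted p = 8.17e-07, edgeR). PSMB4 was the beta gene that did not pass, at -0.41 ± 0.12 with an adjusted p of 0.0104 (edgeR).

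The constitutive catalytic genes fell in every case. PSMB6 went from 38.0, 43.2, 45.3 and 46.7 CPM in WT to 14.7, 17.2, 20.1 and 21.7 CPM, a change of -1.19 ± 0.13 (SE; adjusted p = 1.4e-05, edgeR). PSMB5 changed by -0.89 ± 0.12 and PSMB7 by -0.66 ± 0.13 (SE; adjusted p = 4.91e-05 and 0.000588, edgeR). For all 3 genes, the mutant libraries lay below the WT libraries without overlap.

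The special beta subunits split. PSMB8 fell with the constitutive genes, from 17.5 to 21.1 CPM in WT to 7.26 to 9.77 CPM, a change of -1.13 ± 0.13 (SE; adjusted p = 2.03e-05, edgeR). PSMB9 stood at 3.66 to 4.91 CPM in WT and 2.00 to 3.70 CPM in the mutant, which overlapped, and gave -0.50 ± 0.25 (SE; adjusted p = 0.093, edgeR). PSMB10 was the single gene of the 42 above 0. It stood at 8.67, 12, 11.9 and 13 CPM in WT and at 14.1, 10.5, 16.8 and 17.9 CPM in KDAC8H143A, with 1 mutant library inside the WT range. Its log2 fold change of 0.42 ± 0.19 did not pass (SE; adjusted p = 0.0678, edgeR), all its counts were fractional, and the call was made without KDAC8H143A replicate 2 (0.49, adjusted p = 0.00907, edgeR). The sign turned to -0.40 once GC content and length were corrected for (adjusted p = 0.0171, edgeR). Per kb, PSMB10 was 0.294 ± 0.0900 of the level of PSMB7, which it replaces in the immunoproteasome, against 0.134 ± 0.0113 in WT (SD, n = 4). The same ratio of PSMB8 to PSMB5 was 0.179 ± 0.0148, against 0.212 ± 0.0255 in WT (SD, n = 4). That of PSMB9 to PSMB6 was 0.120 ± 0.0284, against 0.0750 ± 0.00894 in WT (SD, n = 4).

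**Figure D3:**
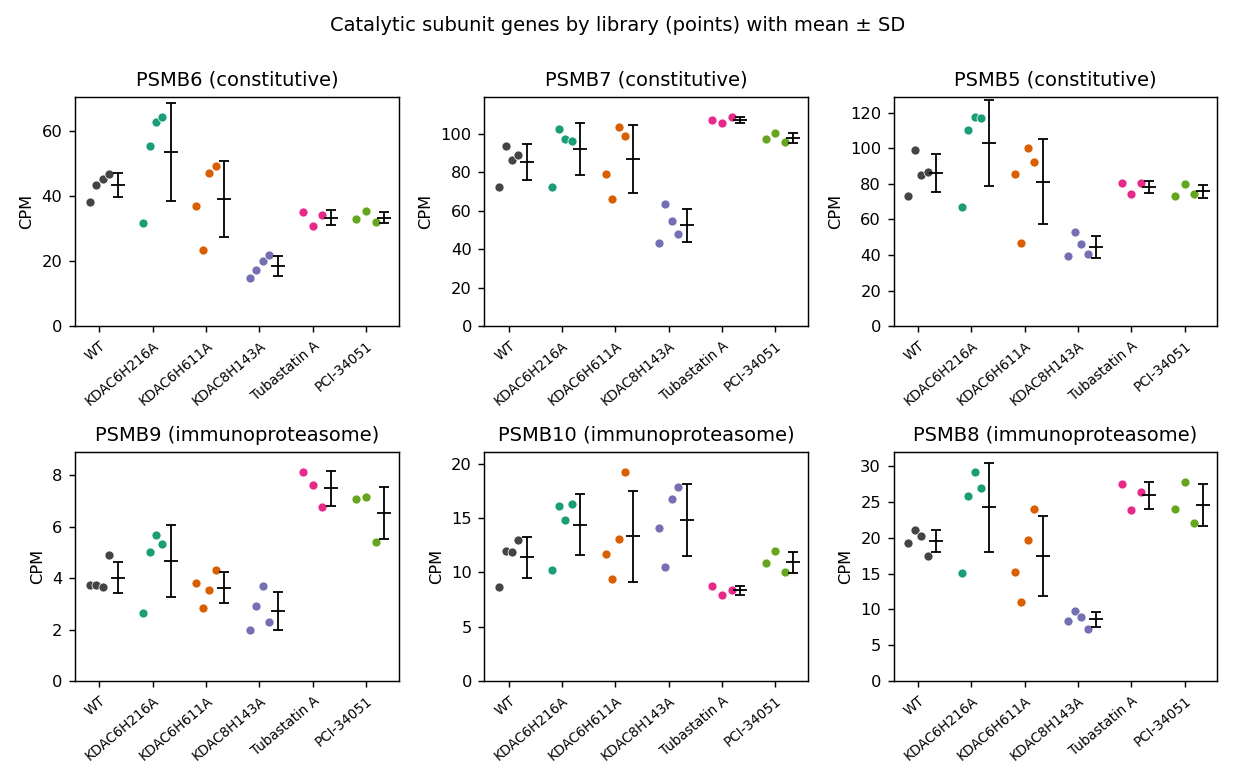
Points are the CPM of the 6 catalytic subunit genes in each library, by group, with the mean ± SD beside them on axes that start at 0. PSMB5, PSMB6, PSMB7 and PSMB8 have their lowest mean in KDAC8H143A, PSMB10 does not, and PSMB9 has its highest mean with Tubastatin A (6.76 to 8.10 CPM).

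In the regulatory particle the falls were less even. Of the ATPases 4 of 6 fell, PSMC6 the most at -1.19, while PSMC4 (-0.35) and PSMC5 (-0.17) did not pass. Of the lid genes 4 of 8 fell, namely PSMD14 (-1.32), PSMD12 (-1.21), PSMD8 (-1.06) and PSMD6 (-0.72). The other lid genes PSMD7, PSMD11, PSMD13 and PSMD3 lay between -0.35 and -0.02 and did not pass. PSMD3 stood at 86.1, 93.2, 95 and 92.4 CPM in WT and at 74.7, 93.4, 89.2 and 92.9 CPM in KDAC8H143A, where most libraries of the line lay inside the WT range. PSMD14 in the same libraries had dropped from 98.5 to 109.6 CPM to between 34.7 and 47.1 CPM. Within the base, the scaffolds PSMD1 (-1.09) and PSMD2 (-0.42) fell and the ubiquitin receptor PSMD4 (-0.15) did not pass.

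All 3 chaperones of base assembly fell, with PSMD10 the most. PSMD10 stood at 23.3, 23.3, 20.9 and 19.4 CPM in WT and at 4.00, 10.8, 8.10 and 6.93 CPM in the mutant. Every mutant library lay below every WT library, although they spread widely among themselves, and the change was -1.47 ± 0.23 (SE; adjusted p = 0.000147, edgeR). The activators PSME1, PSME3 and PSME4 and the inhibitor PSMF1 fell by smaller amounts, with log2 fold changes of -0.51 to -0.42. PSME2, the partner of PSME1, stood at 36.7 to 44.7 CPM against 39.2 to 46.1 CPM in WT and gave -0.03 ± 0.10 and did not pass.

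**Figure D4:**
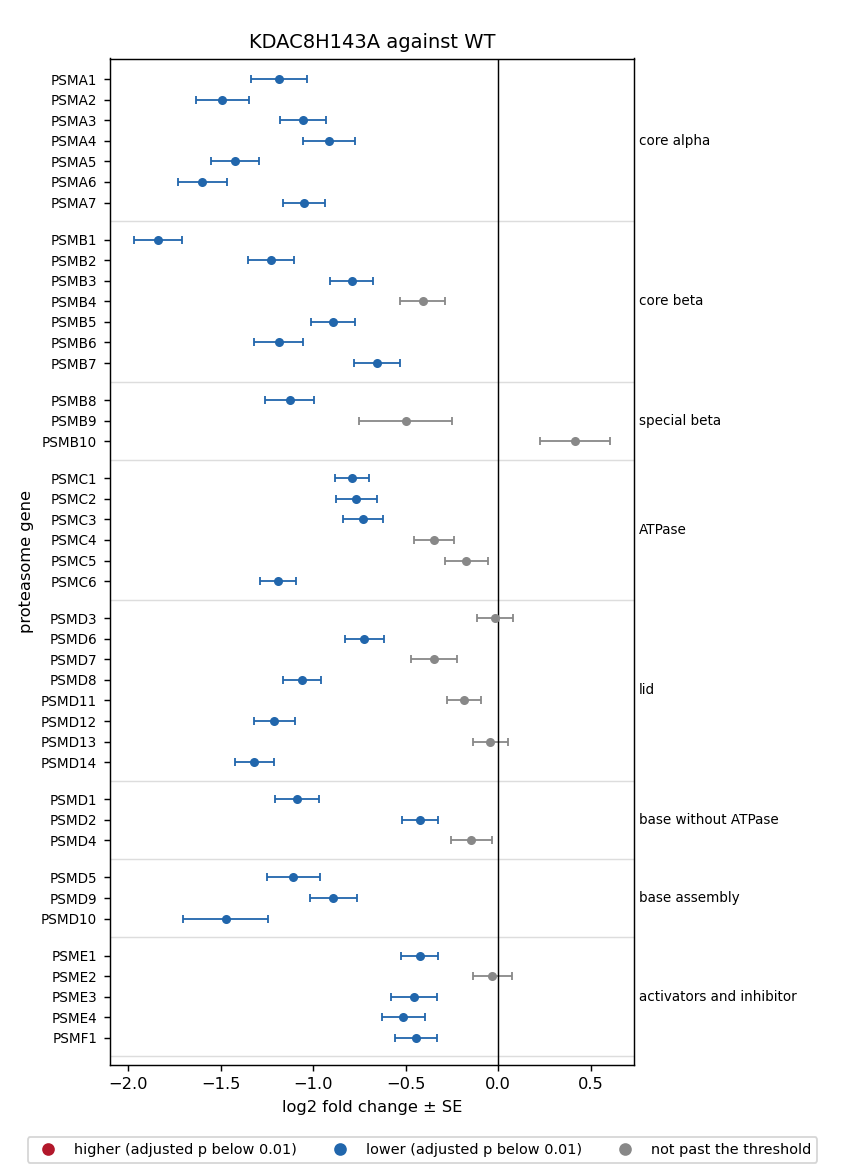
Points are log2 fold changes of the 42 tested proteasome genes in KDAC8H143A against WT with their SE, grouped by class, and colours give the call at an adjusted p below 0.01. The 7 alpha genes run from -1.60 to -0.91, while the lid genes run from -1.32 to -0.02.

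GC content moved with these differences. Across the 42 genes the Spearman correlation of the log2 fold change with the GC content of the transcript was 0.53, and across 15897 genes of the same libraries it was 0.60. The 31 genes that fell had a median GC content of 45.0% and the 11 that did not pass had one of 52.2%. After correction for GC content and length in each library, 31 of the 42 genes were again lower (21.1% of all genes were) and 0 higher (26.6%), with a median of -0.59. The calls were spread over the classes in another way. All 7 beta genes and 3 of 3 base genes without ATPase activity were then lower, but 5 of 7 alpha genes. PSMC6 (-0.13), PSMC2 (0.12) and PSME4 (-0.02) no longer passed, and PSMD3 (-0.62) did. PSMB1 stayed the gene with the lowest value, at -1.76. The order of the classes therefore depended on this choice, and the fall of the genes as a body did not. After the correction the Spearman correlation across the 42 genes was -0.45 with GC content and 0.35 with length. Over all genes these were 0.02 and 0.01. Within the 42 genes the correction thus reversed the correlation with GC content instead of removing it, so neither order of the classes is free of it.

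Because no WT library held as little mitochondrial rRNA, KDAC8H143A was also set against the treated WT cells, an alternative added after the data were seen. Against PCI-34051, 32 of 42 genes were lower and 0 higher (30.3% of 18540 genes were lower and 27.8% higher), with a median of -0.91. Against Tubastatin A, 36 were lower and 1 higher (32.5% of 18458 genes were lower and 29.7% higher), with a median of -0.94. Those libraries were matched in mitochondrial rRNA share but not in total count (11010719 to 17170473 in KDAC8H143A, 24315766 to 29862665 with the inhibitors), and the cells had been treated.

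Tubastatin A gave changes in both directions. Of the 42 genes 8 rose and 13 fell, against 29.3% and 28.6% of 15246 genes, so that the shares of 19.0% and 31.0% were near or under the background. The median was -0.01, against 0.00 over all genes tested. With PCI-34051, 4 rose and 13 fell, against 25.5% and 25.6% of 15346 genes, and the median was -0.08, against -0.01. Both inhibitor groups were compared with the same WT libraries and were given at different doses, so their values stand side by side and were not compared with each other.

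These calls depended on how libraries were scaled. When scaled by the total count only, the median of all genes shifted to 0.35 with Tubastatin A and 0.38 with PCI-34051, and the calls of the 42 genes became 30 higher and 0 lower (51.9% and 12.1% of all genes), and 28 higher and 1 lower (51.4% and 9.62%). Over all genes the split turned from 4461 higher and 4360 lower to 7910 and 1846 with Tubastatin A, and from 3911 and 3924 to 7893 and 1477 with PCI-34051. Relative to the median of all genes, the median of the 42 stayed at -0.01 with Tubastatin A and at -0.07 with PCI-34051 under both scalings. In a fit of all 6 groups together, 2 genes rose and 0 fell with Tubastatin A (16.2% of all genes rose and 8.71% fell), and 1 and 0 with PCI-34051 (14.6% and 8.88%). The directions below, for the members and for the lists of other genes, are those relative to the bulk of genes.

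The clearest rise was that of PSME1, a subunit of the activator induced by interferon. It stood at 30.4, 36.8, 36.2 and 33.2 CPM in WT, at 59.0, 62.2 and 61.9 CPM with Tubastatin A and at 60.6, 65.3 and 61.4 CPM with PCI-34051. Every treated library lay above every WT library. The log2 fold change was 0.71 ± 0.06 with Tubastatin A and 0.76 ± 0.06 with PCI-34051 (SE; adjusted p = 1.3e-09 and 8.27e-09, edgeR). PSME1 was also called higher in the fit of all groups and with the GC correction.

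Its partner PSME2 lies close by on chromosome 14 and did not rise. PSME1 spans 24136163 to 24138967 on the plus strand and PSME2 24143362 to 24147570 on the minus strand (GRCh38, GENCODE). PSME2 stood at 39.2 to 46.1 CPM in WT, at 37.7 to 38.6 CPM with Tubastatin A and at 39.2 to 43.9 CPM with PCI-34051. Its log2 fold change was -0.31 with Tubastatin A, which was called, and -0.18 with PCI-34051, which was not (adjusted p = 0.0153, edgeR). With the GC correction the values of PSME2 were 0.03 and 0.13, and neither was called (adjusted p = 0.691 and 0.0674, edgeR). The ratio of PSME1 to PSME2 per kb was 0.645 ± 0.0406 in WT (SD, n = 4), 1.32 ± 0.0289 with Tubastatin A and 1.25 ± 0.0353 with PCI-34051 (SD, n = 3), and a ratio within a library does not depend on the scaling. The RefSeq windows before both starts are shown for this difference between neighbours (GRCh38.p14, chr14:24135944-24136193, plus strand, and chr14:24146611-24146860, minus strand). The window of PSME1 overlaps the first bases of its GENCODE span, and that of PSME2 lies inside its span, which includes transcripts that start earlier. Capitals mark GGGCGG on either strand and TGACNNNGC, the core letters of the antioxidant response element.
PSME1: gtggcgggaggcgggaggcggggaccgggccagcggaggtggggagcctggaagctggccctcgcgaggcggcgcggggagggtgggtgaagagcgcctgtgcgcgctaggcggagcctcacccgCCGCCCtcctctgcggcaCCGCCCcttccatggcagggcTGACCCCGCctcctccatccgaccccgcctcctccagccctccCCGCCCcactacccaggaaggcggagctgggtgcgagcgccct
PSME2: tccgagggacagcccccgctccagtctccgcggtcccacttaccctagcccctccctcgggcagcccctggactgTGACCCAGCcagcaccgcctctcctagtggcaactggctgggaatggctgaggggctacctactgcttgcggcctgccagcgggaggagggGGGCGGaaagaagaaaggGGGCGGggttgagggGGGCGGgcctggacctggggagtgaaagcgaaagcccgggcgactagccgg

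**Figure D5:**
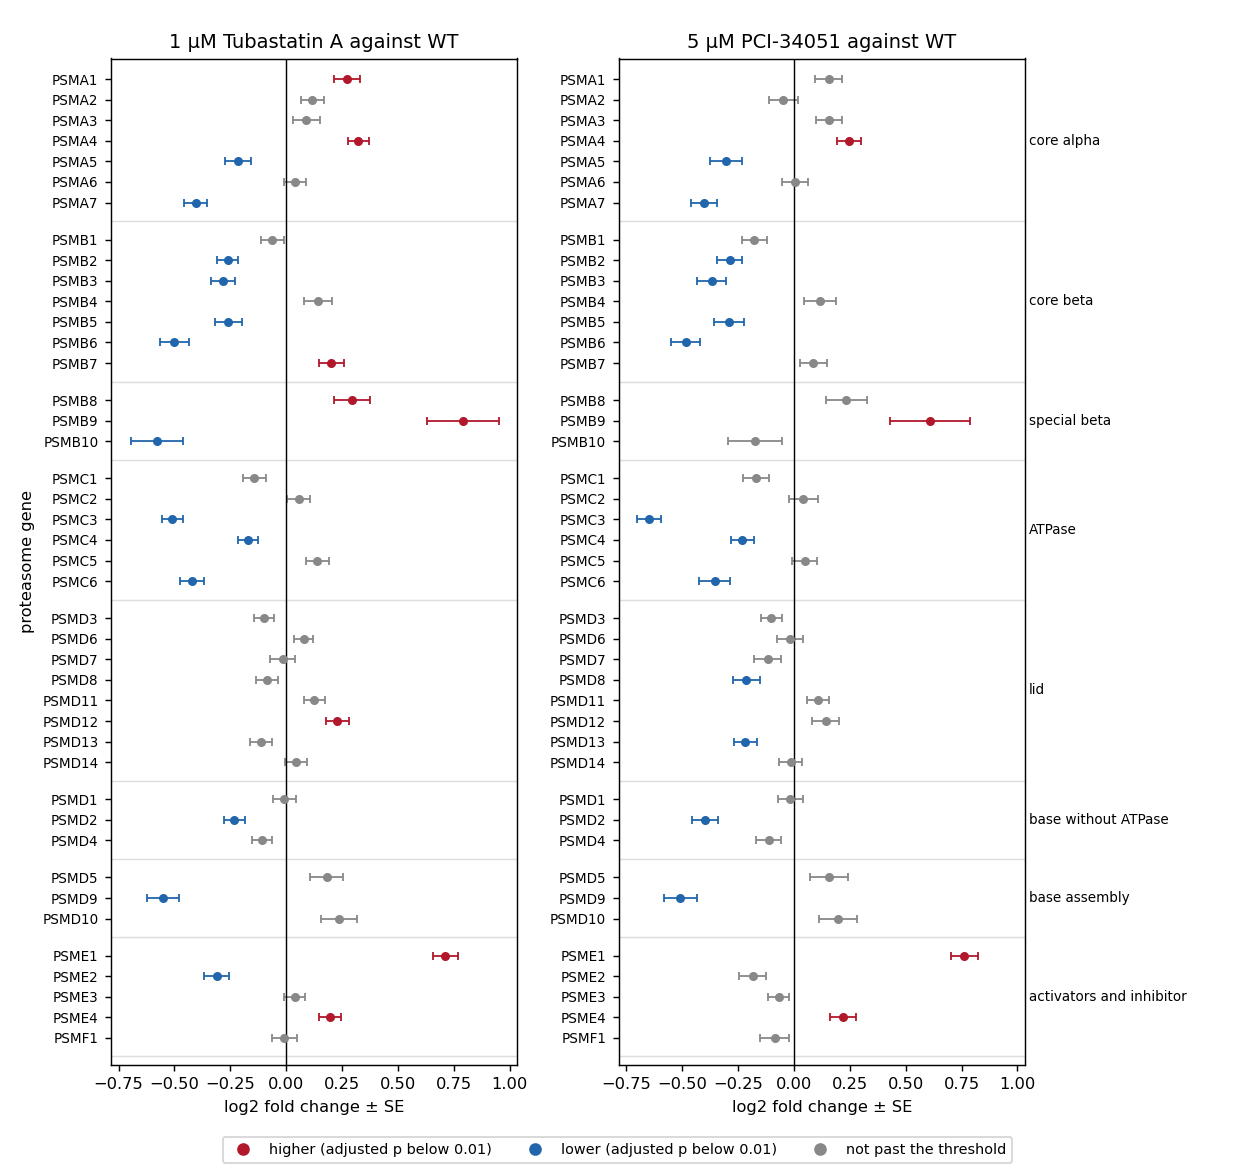
Points are log2 fold changes of the 42 tested proteasome genes with Tubastatin A (left) and PCI-34051 (right) against the same 4 WT libraries, with their SE, by class and coloured by call. PSME1 (0.71 and 0.76) and PSMB9 (0.79 and 0.61) lie farthest to the right, and PSMC3, PSMB6 and PSMD9 are among the lowest on both sides.

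PSMB9, the immunoproteasome partner of PSMB6, rose from the lowest level of the 42 genes. It stood at 3.72, 3.74, 3.66 and 4.91 CPM in WT, at 8.10, 7.60 and 6.76 CPM with Tubastatin A and at 7.07, 7.15 and 5.38 CPM with PCI-34051, and the treated libraries did not overlap with WT. The log2 fold changes were 0.79 ± 0.16 and 0.61 ± 0.18 (SE; adjusted p = 0.000248 and 0.00712, edgeR). With PCI-34051 the call of PSMB9 was kept in 2 of the 7 fits that left out 1 library, lost without WT replicate 1, 2 or 3 or PCI-34051 replicate 1 or 2, and its adjusted p ran from 0.00247 to 0.0274. DESeq2 gave PSMB9 an adjusted p of 0.0185 with PCI-34051. The GENCODE spans of PSMB9 and of its neighbour PSMB8 on the other strand overlap at the starts of both genes. The use of strand in counting is not given in the sources used here. The RefSeq window of PSMB9 (GRCh38.p14, chr6:32853942-32854191, plus strand) is shown with that of PSMC3 (chr11:47426440-47426689, minus strand), the ATPase gene among the largest falls with both inhibitors. The window of PSMB9 too lies inside the GENCODE span of its gene, and that of PSMC3 overlaps the first bases of its span. Capitals mark the letters CCAAT, the GC box GGGCGG and the core TGACNNNGC on either strand.
PSMB9: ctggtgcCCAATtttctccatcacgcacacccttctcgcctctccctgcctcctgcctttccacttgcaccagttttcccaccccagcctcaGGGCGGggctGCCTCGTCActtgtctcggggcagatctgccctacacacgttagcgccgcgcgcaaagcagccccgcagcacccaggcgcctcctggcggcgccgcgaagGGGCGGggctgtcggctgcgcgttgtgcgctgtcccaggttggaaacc
PSMC3: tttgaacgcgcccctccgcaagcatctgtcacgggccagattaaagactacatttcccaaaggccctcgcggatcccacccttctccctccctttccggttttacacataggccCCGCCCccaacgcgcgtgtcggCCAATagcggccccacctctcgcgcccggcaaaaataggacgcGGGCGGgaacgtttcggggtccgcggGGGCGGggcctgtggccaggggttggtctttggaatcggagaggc

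PSMC3 stood at 93.3, 106, 101 and 95.4 CPM in WT, at 75.5, 74.7 and 75.8 CPM with Tubastatin A and at 70.1, 69.7 and 63.5 CPM with PCI-34051. All treated libraries lay below WT, with log2 fold changes of -0.51 ± 0.05 and -0.65 ± 0.05 (SE; adjusted p = 1.18e-08 and 1.43e-08, edgeR). Scaled by the total count only, these were -0.16 and -0.26. PSMD9, a chaperone of the base, changed by -0.55 ± 0.07 and -0.51 ± 0.07 (SE; adjusted p = 1.8e-06 and 1.27e-05, edgeR), and all its counts were fractional.

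The catalytic genes did not move as one with the inhibitors. PSMB6 fell from 38.0 to 46.7 CPM in WT to 30.8 to 35.2 CPM with Tubastatin A and 31.9 to 35.3 CPM with PCI-34051, or by -0.50 ± 0.07 and -0.48 ± 0.06 (SE; adjusted p = 2e-06 and 5e-06, edgeR). PSMB5 fell by less, with -0.26 ± 0.06 and -0.29 ± 0.07 (SE; adjusted p = 0.00099 and 0.00105, edgeR), its libraries overlapped with WT, and its sign turned to 0.09 and 0.10 when scaled by the total count only. The call of PSMB5 with Tubastatin A was lost without WT replicate 2 or Tubastatin A replicate 2 (adjusted p = 0.0131 and 0.0108, edgeR). PSMB7 rose with Tubastatin A, from 72.3 to 93.7 CPM in WT to 105 to 108 CPM, by 0.20 ± 0.06 (SE; adjusted p = 0.00326, edgeR), and gave 0.09 ± 0.06 with PCI-34051 (adjusted p = 0.208, edgeR). Without Tubastatin A replicate 1 the rise of PSMB7 missed the threshold (adjusted p = 0.0113, edgeR). With the GC correction both calls of PSMB6 were lost, at -0.16 with Tubastatin A and -0.18 with PCI-34051 (adjusted p = 0.028 and 0.0193, edgeR). Those of PSMB5 were lost too, at -0.01 and -0.07 (adjusted p = 0.898 and 0.323, edgeR). PSMB7 was then called higher with PCI-34051 as well, at 0.31 (adjusted p = 0.000133, edgeR).

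Of the other special beta genes, PSMB8 stood at 17.5 to 21.1 CPM in WT, at 23.8 to 27.4 CPM with Tubastatin A and at 22.0 to 27.7 CPM with PCI-34051. Its log2 fold changes were 0.29 ± 0.08 and 0.23 ± 0.09 (SE; adjusted p = 0.00354 and 0.0352, edgeR), so that the call was made for Tubastatin A alone, and a test of the difference was not made since the doses differ. Without WT replicate 4 or Tubastatin A replicate 1 the call of PSMB8 was lost (adjusted p = 0.0178 and 0.0174, edgeR), and without PCI-34051 replicate 3 it was made with PCI-34051 (adjusted p = 0.00937, edgeR). PSMB10 showed the largest fall with Tubastatin A, from 8.67, 12, 11.9 and 13 CPM in WT to 8.77, 7.93 and 8.36 CPM, where 1 treated library lay inside the WT range. It changed by -0.58 ± 0.12 with Tubastatin A and by -0.17 ± 0.12 with PCI-34051 (SE; adjusted p = 0.000265 and 0.223, edgeR). With the GC correction the call for PSMB10 with Tubastatin A was lost, at -0.33 (adjusted p = 0.0125, edgeR). PSMB8 was then called higher with both inhibitors, at 0.52 with Tubastatin A and 0.43 with PCI-34051 (adjusted p = 1.27e-05 and 0.000774, edgeR).

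Set against the constitutive gene that each replaces, per kb and within a library, PSMB8 stood at 0.212 ± 0.0255 of PSMB5 in WT (SD, n = 4), at 0.307 ± 0.00941 with Tubastatin A and at 0.301 ± 0.0243 with PCI-34051 (SD, n = 3). PSMB9 stood at 0.0750 ± 0.00894 of PSMB6 in WT, at 0.183 ± 0.0199 with Tubastatin A and at 0.159 ± 0.0196 with PCI-34051. Both ratios were higher in every treated library than in any WT library. PSMB10 to PSMB7 went the other way, with 0.134 ± 0.0113 in WT, 0.0786 ± 0.00347 with Tubastatin A and 0.113 ± 0.00710 with PCI-34051.

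Other members past the threshold moved by smaller amounts. PSMA4, an alpha subunit gene, stood at 60.7 to 71.3 CPM in WT and at 80.0 to 91.7 CPM in the treated libraries, with log2 fold changes of 0.32 ± 0.05 and 0.25 ± 0.05 (SE; adjusted p = 6.68e-06 and 0.000848, edgeR). The nuclear activator PSME4 rose by 0.20 with Tubastatin A and by 0.22 ± 0.06 with PCI-34051 (adjusted p = 0.00306 for the latter, edgeR), which was lost without WT replicate 2 or 4 or PCI-34051 replicate 1 (adjusted p up to 0.0189, edgeR). PSMA7 fell by 0.41 with Tubastatin A and by 0.40 ± 0.06 with PCI-34051 (adjusted p = 1.12e-05 for the latter, edgeR) on the log2 scale, a value that became -0.01 with PCI-34051 when scaled by the total count only. Of the lid genes 1 rose and 0 fell with Tubastatin A, and 0 rose and 2 fell with PCI-34051. After the GC correction, 12 of the 42 genes were higher and 7 lower with Tubastatin A (27.3% and 29.5% of all genes), and 8 and 7 with PCI-34051 (24.2% and 27%). PSMA7 was then not called with Tubastatin A (-0.13) or PCI-34051 (-0.16), and neither was PSME4 (0.04 and 0.09). The call of PSMA4 was lost with PCI-34051 (0.15) and kept with Tubastatin A (0.20).

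Promoters of the members were searched on both strands for the letters shown above in the RefSeq windows, which run from 250 bases before the start to 50 after it and were found for 39 of the 44 genes. TGACNNNGC was present in 11 of the 39 (28.2%) and in 13.6% of the windows of 27305 genes. CCAAT was present in 46.2% against 35.7%, GGGCGG in 64.1% against 44.6%, and GGAAGTG, letters bound by ETS factors, in 23.1% against 11.5%. Among the 27 members with a window that fell in KDAC8H143A, TGACNNNGC was present in 25.9%, and among the 10 that did not pass it was present in 40%. These matches describe the sequence alone.

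Genes that work with the proteasome were followed in 3 lists. Of the list of assembly factors, further subunits and regulators, 17 of 19 were tested, and its median log2 fold change was -0.41 for KDAC8H143A, 0.01 for Tubastatin A and -0.10 for PCI-34051. In KDAC6H216A 0 changed (0.834% of all genes), or 3 without its replicate 1 (3813 of 14638 genes). In KDAC6H611A 3 fell and 0 rose (6.24% and 6.08% of all genes), namely the deubiquitinase USP14 (-1.23), TXNL1 (-1.06) and NFE2L2 (-0.41). Whether genes near USP14 and TXNL1 fell with them in this line was not tested. Without replicate 2 of that line 5 changed (2908 of 14981 genes). In KDAC8H143A 8 fell and 0 rose (26.9% and 31.6% of all genes), among them the core chaperone PSMG2 (-1.89), the ubiquitin ligase UBE3C (-1.35) and USP14 (-1.17). With Tubastatin A 7 rose and 4 fell (29.3% and 28.6% of all genes), and with PCI-34051 6 and 4 (25.5% and 25.6%), so that the share of the list that fell was near that of all genes. The largest rise on the list was that of AKIRIN2, which brings proteasomes into the nucleus, at 1.13 and 1.12, and the chaperone POMP rose by 0.56 and 0.50. The core chaperones PSMG3 and PSMG4 fell with both, by 0.64 and 0.75 with Tubastatin A and by 0.68 and 0.74 with PCI-34051 on the log2 scale. NFE2L1, a transcription factor that activates proteasome genes, rose by 0.50 and 0.57.

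Of the ubiquitin genes and shuttle factors, 13 of 15 were tested, with medians of -0.61, -0.08 and -0.03 in the same order. The shares over all genes are those given for the first list. In KDAC8H143A 8 fell and 1 rose. In KDAC6H216A 0 changed, or 6 without its replicate 1. In KDAC6H611A 1 fell, UBA6, or 2 changed without its replicate 2, and 0 did without its replicate 1 or without any 1 of the WT libraries. Among the falls in KDAC8H143A were the ubiquitin genes RPS27A (-1.24) and UBB (-1.04). With each inhibitor 6 rose and 5 fell. With all 6 groups in one fit 4 changed with Tubastatin A (4607 of 18480 genes) and 2 with PCI-34051 (4341 of 18480). All 12 genes of antigen processing were tested, with medians of -0.35, 0.30 and 0.43. In KDAC8H143A 3 rose and 5 fell (31.6% and 26.9% of all genes), NLRC5, the activator of class I genes, at 1.46 and the chaperone PDIA3 at -1.10. With each inhibitor 8 rose and 2 fell (29.3% and 28.6% of all genes with Tubastatin A, 25.5% and 25.6% with PCI-34051). With all 6 groups in one fit, 5 and 6 changed in all (4607 and 4341 of 18480 genes). B2M rose by 0.91 and 0.87 and TAP1 by 0.40 and 0.59. The 2 that fell, relative to the bulk of genes, were the regulators IRF1 and NLRC5 with each inhibitor. In both KDAC6 lines 0 of the 12 passed. But 6 did in KDAC6H216A without its replicate 1 (3813 of 14638 genes), and 1 in KDAC6H611A without its replicate 2 (2908 of 14981 genes).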

How the data were processed

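RNA was measured in 22 libraries of 6 groups. Per the labels, total RNA was depleted of rRNA and sequenced in pairs. The authors deposited 1 table of expected counts per gene, made from reads trimmed with Trimmomatic 0.39 and aligned with Bowtie2 2.4.5 for RSEM 1.3.3 on GRCh38, and their own tests used DESeq2 1.38.2. The annotation release and the use of strand are not given in the sources used here. RSEM divides reads shared between genes, and 10.6 to 13.5% of all values in a library, zeros included, were not whole.

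The expected counts were rounded and fitted with edgeR 4.0.16 (R 4.3.3; quasi-likelihood test, TMM, low counts removed by group) on each group and WT, over all genes, and an adjusted p (Benjamini-Hochberg, over all genes tested) below 0.01 counted as changed. SE is the size of the log2 fold change divided by the root of the F statistic. Levels are CPM with TMM factors over all libraries, per kb of the GENCODE release 44 canonical transcript where genes are compared. Promoter sequences are from RefSeq (GRCh38.p14). The members and lists were chosen with earlier results of these data known. Full statistics were given for the 6 catalytic genes and for the 4 largest rises and 4 largest falls past the threshold in each comparison, and other genes were named within their class or list. Alternatives were DESeq2 1.42.0, total count scaling, no mitochondrial rRNA, no filter, a threshold of 0.05, all 6 groups in one fit, replicate number as a block, correction for GC content and length (mgcv 1.9.3), and leaving out each library. On simulated counts with 200 changed genes, edgeR recovered 99.5% in the KDAC8H143A design (16101 genes) and 99% in the Tubastatin A design (15246 genes). The changed genes were well counted and altered 2-fold or 4-fold, and all genes had the same dispersion. Changes under 2-fold and the uneven spread of the real replicates were not simulated, so these rates are not the power of the tests above. With a GC bias added to the simulation, false calls made up 75.93% and 64.84% of the uncorrected calls, and the GC correction lowered this to 2.5% and 0.51%. The added bias was a fixed smooth function of GC content that was not fitted to these data, so these shares describe the simulation alone. No 2 replicates agreed within sampling noise, and intervals cover the spread between the libraries alone. Same-numbered libraries deviated from their group means with correlations of -0.04 to 0.149, and the numbers were not used to pair the samples in the main fit. Whether the numbers mark a shared batch was not tested. Some genes of the lists are counted in them but not reported here by name.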

Additional observations from a re-analysis of the deposited data

Results flagged for a closer look

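The gap between 1 library and the nearest other was divided by the range of its group. This ratio exceeded Dixon's critical value of 0.829 for 4 samples in 3 of 76 groups of named members. Chance alone gives about 1 in 20. PSMB9 stood at 4.91 CPM in WT replicate 4, where the nearest of the other WT libraries was at 3.74 and the farthest at 3.66 CPM. In KDAC6H216A replicate 1, the library with 0.195% mitochondrial rRNA, PSMB5 stood at 67.1 CPM while the other libraries lay between 110.0 and 117 CPM, and PSMF1 stood at 42.1 CPM while the others lay between 68.6 and 71.1 CPM. The part of library kind in these values was not tested.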

How the results depend on the processing

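The fall of the proteasome genes in KDAC8H143A kept its direction under every alternative run, with 25 to 36 genes lower. The 25 came with total count scaling (2494 of all 16101 genes lower). The 36 came with Tubastatin A in place of WT (5999 of all 18458 genes lower). Leaving out single libraries gave 27 to 35 changed proteasome genes in KDAC8H143A, 18 to 23 with Tubastatin A and 12 to 19 with PCI-34051 (12 without WT replicate 2). Over all genes these fits called 8186 to 10520, 8159 to 8902 and 7043 to 7686 in the same order. They tested 16059 to 16946, 15575 to 17243 and 15651 to 16937 genes. Such fits gave 0 to 24 proteasome genes in KDAC6H216A, the 24 being without its replicate 1, and 1 to 4 in KDAC6H611A. Scaled by the total count only, 2 proteasome genes changed in KDAC6H216A, 0 in KDAC6H611A and 29 with PCI-34051 (9370 of all 15346 genes). The log2 fold change of PSMB5 then reversed to 0.0942 for Tubastatin A and 0.0986 for PCI-34051. In KDAC6H611A, 4 proteasome genes changed with no filter (2468 of all 31966 genes) and 5 at an adjusted p below 0.05 (3383 of all 14725 genes). With all 6 groups in one fit, 2 changed with Tubastatin A and 1 with PCI-34051, and the cause was not tested. Over all genes, KDAC6H216A gave 121 changed genes, 293 by DESeq2, 443 with total count scaling, 351 at an adjusted p below 0.05, 215 with all 6 groups in one fit, and 28 to 3813 without single libraries (3813 without its replicate 1). For KDAC6H611A 1814 became 913 with total count scaling, 3383 at an adjusted p below 0.05, and 1122 to 2908 without single libraries (2908 without its replicate 2). With all 6 groups in one fit, 8821 became 4607 for Tubastatin A and 7835 became 4341 for PCI-34051. The replicate block gave 0, 2, 32, 17 and 15 changed proteasome genes in KDAC6H216A, KDAC6H611A, KDAC8H143A, Tubastatin A and PCI-34051. Over all genes the block called 66 of 14500, 1559 of 14725, 9194 of 16101, 7711 of 15246 and 7134 of 15346 in the same order. With the GC correction added, the block called 60 genes in KDAC6H216A. In KDAC6H216A and KDAC6H611A 2 of 4 libraries, and in the other groups 1, correlated best with their own number. Depth limits the member with the lowest level most: PSMB9 had 4.91 CPM or less in the WT libraries, which held 5248953 to 8998474 counts.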
